A study of Homo sapiens with 18 samples.

Results

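The 10 genes described here are the core of the BCL2 family of apoptosis regulators that the series measured: the pro-survival genes BCL2, BCL2L1 and MCL1, the effector genes BAX and BAK1, and the BH3-only genes BID, BCL2L11, BBC3, PMAIP1 and BMF. They were picked by gene symbol from a table of 61552 genes, and all 10 were among the 19038 genes with enough counts to test. The cells were HCT116, a human colorectal carcinoma line, with an IκBα knock-in. IκBα retains NF-κB outside the nucleus, and the cytokine TNF (tumour necrosis factor) sets NF-κB free by triggering the destruction of IκBα. There were 3 lines: the N108 mutant, named for residue 108 with no substitution stated, the M3 mutant with alanine in place of H84, E85 and E86, and the wild-type (WT) knock-in. Each line was sequenced with TNF (human TNFα, 0.1 µg/mL, for 40 min) and untreated, with 3 libraries per group and 18 in all. All groups, WT included, were thus HCT116 knock-ins. The labels name a single line per genotype and do not say whether it is a single clone or whether replicates were separate cultures. A mutation cannot be told apart here from the line that carries it, and p-values rest on a spread among libraries that may be only technical.

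Proteins of this family decide whether the outer membrane of the mitochondrion stays closed. Pro-survival members (BCL2, BCL-XL from BCL2L1, MCL1) hold the effectors BAX and BAK in check, and BH3-only proteins either occupy the pro-survival members or activate the effectors. Once the effectors form pores, cytochrome c leaves the mitochondrion and the caspases are switched on. BCL2L1 is known as a target of NF-κB, while BBC3, which encodes PUMA, and PMAIP1, which encodes NOXA, are known as targets of p53, and HCT116 cells carry a functional p53. BCL2L1 and BCL2L11 give rise to isoforms of different activity through splicing, which counts per gene do not separate.

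The windows of 250 bases before the annotated start are shown for BBC3 and PMAIP1, the members called for TNF, and for BCL2L1, which differed most between the lines. They were copied from the RefSeq promoter table for GRCh38.p14, which matched 9 of the 10 genes with 15 windows. They run 5′ to 3′ on the strand of the gene, and capitals mark matches to a motif.
BBC3, chr19:47232668-47232917, minus strand: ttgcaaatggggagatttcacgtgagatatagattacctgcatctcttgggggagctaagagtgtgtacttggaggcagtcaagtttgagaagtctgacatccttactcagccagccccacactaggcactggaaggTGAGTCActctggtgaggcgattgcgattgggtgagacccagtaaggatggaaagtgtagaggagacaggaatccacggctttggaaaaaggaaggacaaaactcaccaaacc
PMAIP1, chr18:59899746-59899995, plus strand: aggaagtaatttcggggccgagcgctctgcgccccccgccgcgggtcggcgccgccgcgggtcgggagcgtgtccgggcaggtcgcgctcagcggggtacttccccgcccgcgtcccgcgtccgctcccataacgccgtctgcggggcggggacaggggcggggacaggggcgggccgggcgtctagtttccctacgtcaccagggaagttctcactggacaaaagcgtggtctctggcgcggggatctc
BCL2L1 upstream start, chr20:31723964-31724213, minus strand: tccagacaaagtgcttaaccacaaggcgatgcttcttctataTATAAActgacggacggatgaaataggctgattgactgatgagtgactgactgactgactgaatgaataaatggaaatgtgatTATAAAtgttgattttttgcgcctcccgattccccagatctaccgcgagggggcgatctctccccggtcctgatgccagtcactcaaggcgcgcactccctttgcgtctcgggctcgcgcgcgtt
BCL2L1 downstream start, chr20:31722869-31723118, minus strand: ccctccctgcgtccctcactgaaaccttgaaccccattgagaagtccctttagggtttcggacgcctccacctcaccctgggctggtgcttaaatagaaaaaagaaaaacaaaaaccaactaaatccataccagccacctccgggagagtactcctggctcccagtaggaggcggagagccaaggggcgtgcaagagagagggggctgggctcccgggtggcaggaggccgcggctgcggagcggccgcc
Both strands were searched for the NF-κB consensus, the AP-1 site TGANTCA, the cAMP response element TGACGTCA and the TATA box TATAAA, and overlapping matches of different motifs were allowed. BBC3 held an AP-1 match at bases 113 to 107 before its start, a motif found in 6.57% of 35116 promoter windows of the same length. The upstream BCL2L1 window held 2 TATA matches, at bases 208 to 203 and 125 to 120 before the start (10.7% of windows hold one), and the downstream BCL2L1 window and PMAIP1 held no match to any of the 4 motifs. Of the other member windows, a BMF window had an NF-κB match (9.96% of windows). The cAMP response element, present in 1.65% of windows, was in none of the 15. These are matches of letters and were not measured as sites.

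Library totals lay between 49021907 and 76947190 counts, and replicates differed by more than sampling noise in every pair (chi-square per degree of freedom 3.42 to 23.5). The lowest count of any of the 10 genes in any library was 206, for BMF. NFKBIA, which encodes IκBα, averaged 276 ± 19.5 CPM with TNF and 30.3 ± 1.82 untreated in N108, 966 ± 20.9 and 77.9 ± 1.17 in M3, and 758 ± 19.8 and 91.6 ± 4.57 in WT (CPM, counts scaled by library total with TMM factors; mean ± SD, n = 3 each, as throughout). Of 12 markers of colon epithelium 7 were tested, while CDH17, CDX1 and CEACAM5 had at most 9 counts in any library. The summed epithelial level lay at 4813 to 5308 CPM in N108 with TNF, 4837 to 5101 in N108 untreated, 3732 to 4052 in M3 with TNF and 4098 to 4404 in M3 untreated, against 6389 to 6896 in WT with TNF and 6252 to 6581 in WT untreated. KRT8 and KRT18 carried much of this sum, at 2897 ± 78.5 and 1319 ± 36.1 CPM in untreated WT. EPCAM went the other way untreated, at 306 ± 9.99 CPM in N108 and 355 ± 15.2 in M3 against 287 ± 8.57 in WT. With TNF EPCAM was at 295 ± 15.2, 353 ± 26.6 and 313 ± 14.1. CDH1 was lower in untreated mutants, at 179 ± 2.47 in N108 and 137 ± 2.41 in M3 against 202 ± 4.44 in WT. The sum of the 6 leukocyte markers lay between 0.472 and 0.789 CPM in the mutant libraries and between 3.04 and 4.42 CPM in WT libraries, with PTPRC, CD3E and CD14 at no more than 9 counts. Fibroblast markers summed to 32.8 to 39.1 CPM in N108 and 33.8 to 35.9 in M3 with TNF, against 19.8 to 23.4 in WT with TNF, and to 29.03 to 31.8 in N108 and 31.1 to 36.8 in M3 untreated, against 27.1 to 27.7 in WT untreated. Endothelial markers summed to 0.995 to 2.29 CPM over all libraries. Of these lists, DCN, LUM, THY1 and PECAM1 had no more than 9 counts. The part of these line differences in the results below was not tested. Some libraries showed a trend of their values with transcript GC content, most of all the second and the third N108 libraries with TNF (Spearman rho 0.454 and -0.517 across genes) and the third untreated M3 library (0.464).

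Measured per length of exon, BCL2L1 was the most abundant of the 10 in every group and BCL2 the least. In such bulk RNA, fewer cells that express a gene and less of its RNA per cell cannot be told apart. In untreated WT cells BCL2L1 stood at 123 ± 3.46 CPM per kb of exon, followed by MCL1 at 55 ± 0.39 and BAX at 28.5 ± 1.91. BBC3 (13.8 ± 0.856), BID (13.4 ± 0.0551) and PMAIP1 (12.3 ± 0.517) formed a middle group in which BBC3 and BID did not differ beyond their spread. BAK1 (10.2 ± 0.0417) and BCL2L11 (5.74 ± 0.127) came next, and BMF (0.92 ± 0.108) and BCL2 (0.569 ± 0.0432) were at under 1 CPM per kb. The first 3 places were the same in all 6 groups on this scale. Divided by the longest transcript instead of all exons, BAX passed MCL1 in M3, at 56.3 against 55.6 CPM per kb with TNF and 56.3 against 49.8 untreated. BMF was then the least in untreated N108, at 1.135 against 1.186 for BCL2. In CPM not divided by length, BMF averaged below BCL2 in every group, as in untreated WT with 5.01 against 6.70. The order of the middle genes moved with TNF: in WT with TNF, BBC3 reached 22.1 ± 0.717 and PMAIP1 18.9 ± 0.575 CPM per kb, above BID at 14.4 ± 0.707.

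Summed by role, the pro-survival genes held the larger share of the family's transcripts in every group, and that share was lower in the mutant lines. Untreated, they made up 61.8% ± 0.277 of the summed CPM per kb in N108 and 58.1% ± 1.08 in M3, against 67.7% ± 0.449 in WT (n = 3 each). With TNF the share was 59.5% ± 0.907 in N108, 55.6% ± 0.421 in M3 and 66.1% ± 0.496 in WT. The libraries of the 3 lines did not overlap in either condition. BH3-only genes held 23.5% ± 0.097 with TNF and 20.7% ± 0.167 untreated in N108, 26.2% ± 0.742 and 22.2% ± 0.274 in M3, and 21.2% ± 0.326 and 17.6% ± 0.364 in WT. Their summed level, unlike their share, was lower in the mutants. It was 48.4 ± 0.52 CPM per kb with TNF and 39.9 ± 0.701 untreated in N108, and 52.8 ± 1.82 and 41.1 ± 0.442 in M3. In WT it was 62.5 ± 1.83 and 46.3 ± 1.22. The summed effector level was 33.8 ± 0.611 CPM per kb in untreated N108, 36.6 ± 2.56 in untreated M3 and 38.6 ± 1.94 in untreated WT. With TNF it was 35 ± 1.89, 36.7 ± 0.46 and 37.3 ± 0.753. N108 libraries lay below the WT libraries in both conditions, and M3 libraries overlapped them. The effector share was 17.5% ± 0.202 in untreated N108, 19.8% ± 1.35 in untreated M3 and 14.7% ± 0.413 in untreated WT. With TNF it was 17% ± 0.81, 18.2% ± 0.355 and 12.7% ± 0.191. BCL2L1 alone carries most of the pro-survival sum and so weighs on the share of every role. The sums leave out other expressed family members, such as BCL2L2 and BOK, at 47.7 and 50.3 CPM in untreated WT. They also depend on the length used. Divided by the longest transcript, untreated WT had BCL2L1 at 156 and BAX at 54.2 CPM per kb, against 123 and 28.5 by exons. These shares and sums are a description of the same values and were not tested.

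**Figure D1:**
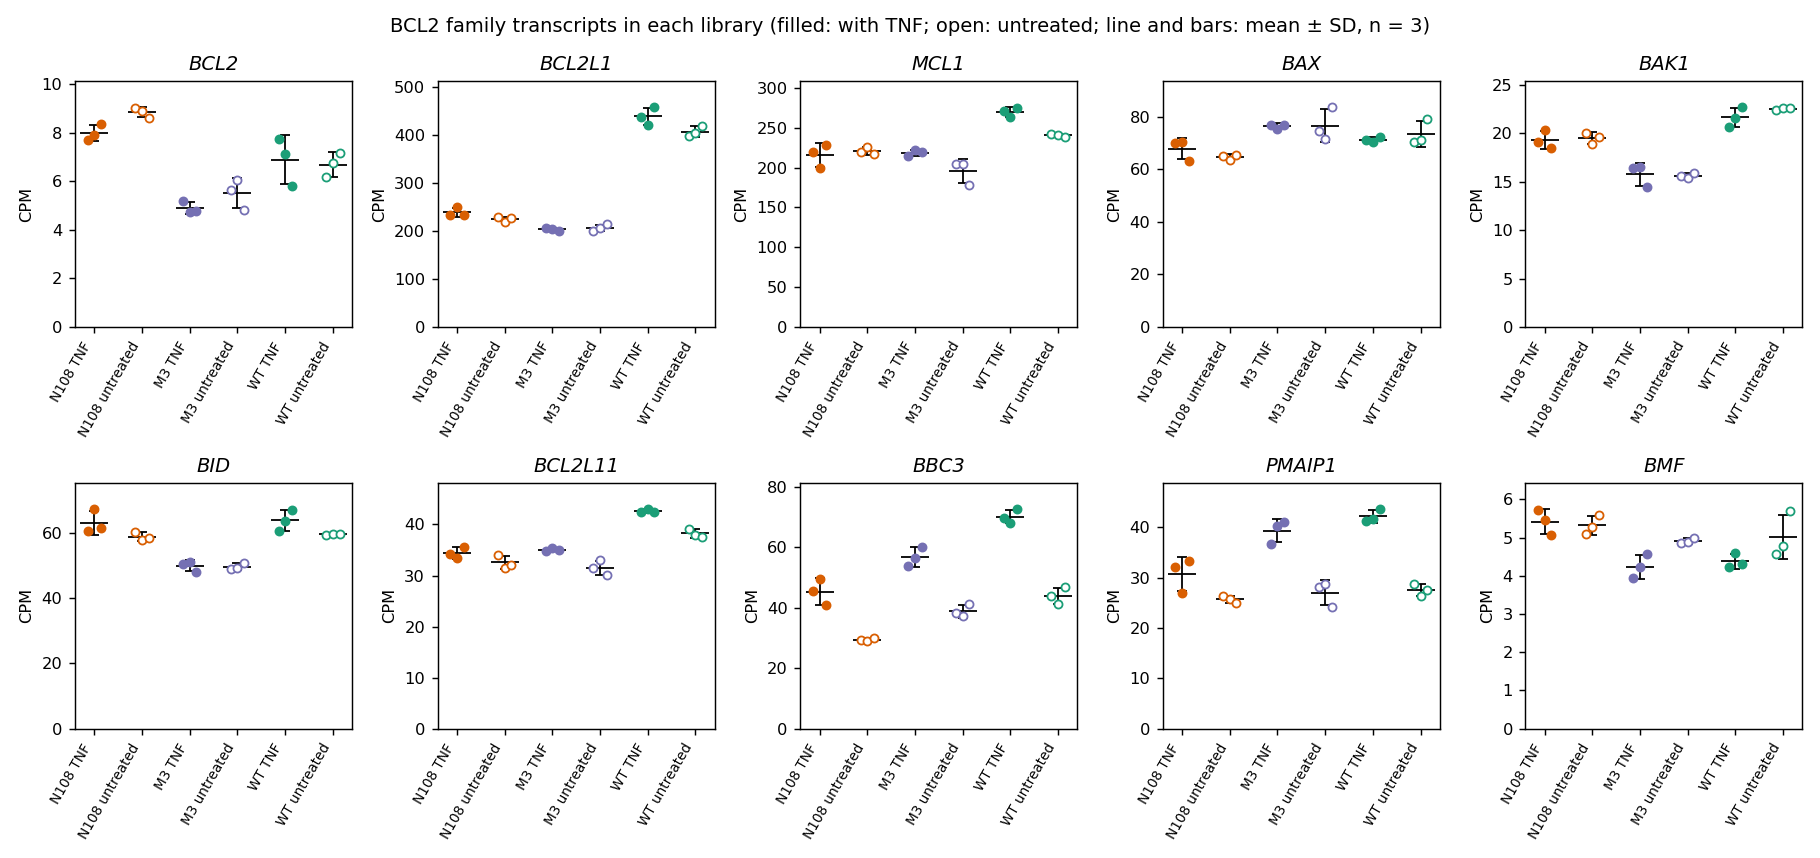
Level of each of the 10 genes in every library, in CPM, with TNF (filled) and untreated (open) in N108, M3 and WT; the line and bars are the mean ± SD of 3 libraries. BCL2L1 lies between 201 and 249 CPM in all 12 mutant libraries and between 397 and 458 CPM in all 6 WT libraries, and BBC3 is higher with TNF in each line.

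**Figure D2:**
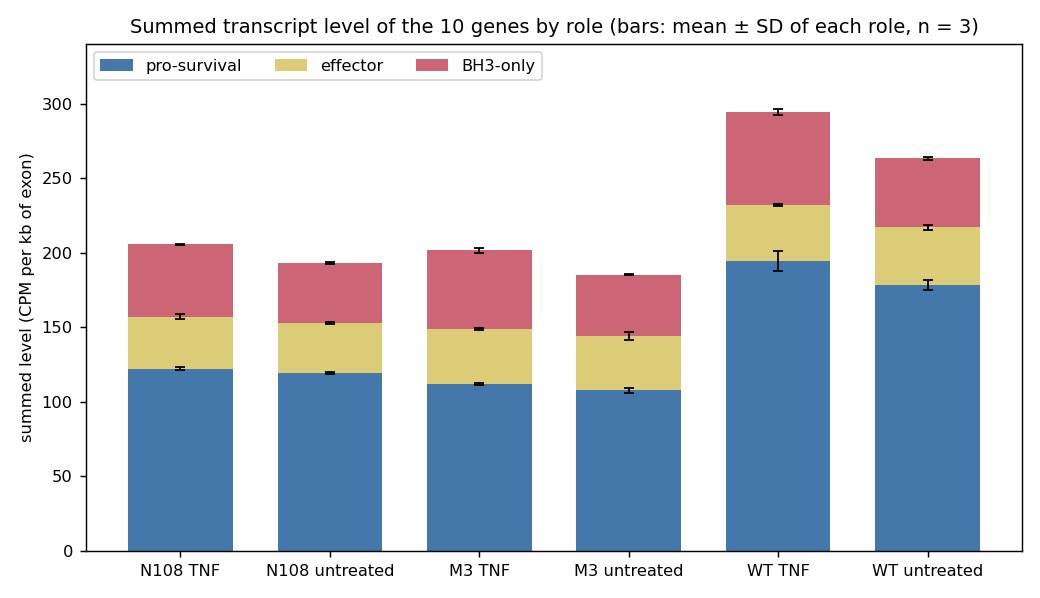
Summed level of the 10 genes by role in each group, in CPM per kb of exon, stacked from pro-survival through effector to BH3-only; the bars are the SD of each role over 3 libraries. The pro-survival block is 122 and 119 CPM per kb in N108 (with TNF, untreated), 112 and 108 in M3 and 195 and 178 in WT.

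Within 40 min TNF raised the BH3-only gene BBC3 in all 3 lines and the BH3-only gene PMAIP1 in M3 and WT, and no other member passed the threshold of an adjusted p of 0.05 (edgeR's quasi-likelihood test, Benjamini-Hochberg over all genes tested). BBC3, whose product PUMA binds all pro-survival members, measured 45.6, 49.6 and 40.8 CPM in N108 with TNF, against 29.4, 28.9 and 30.1 in untreated N108. In M3 it measured 53.8, 56.5 and 60.2 CPM with TNF, against 38.2, 37.2 and 41.1 untreated, and in WT 69.7, 68.2 and 72.7 CPM with TNF, against 43.8, 41.4 and 46.8 untreated. Every library with TNF lay above every untreated library of its line. BBC3 rose in N108 (log2 fold change 0.62, SE 0.063, adjusted p = 7.3e-08), in M3 (0.55, SE 0.062, adjusted p = 5.2e-07) and in WT (0.68, SE 0.061, adjusted p = 7.8e-09), that is to 1.54, 1.46 and 1.6 times the untreated level.

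PMAIP1, whose product NOXA binds mainly MCL1, measured 32.2, 26.9 and 33.2 CPM with TNF in N108, against 26.3, 25.8 and 24.9 untreated. It measured 36.8, 40.2 and 41 CPM with TNF in M3, against 28.2, 28.6 and 24.1 untreated, and 41.2, 41.7 and 43.6 CPM with TNF in WT, against 28.8, 26.5 and 27.6 untreated. The groups did not overlap in any line, although the lowest N108 library with TNF was only just above the highest untreated one. PMAIP1 rose in M3 (log2 fold change 0.54, SE 0.069, adjusted p = 5.4e-06) and in WT (0.61, SE 0.069, adjusted p = 5.6e-07), and in N108 its value was 0.26 (SE 0.07, adjusted p = 0.062). Without the second N108 library with TNF the N108 value was 0.35 (adjusted p = 0.0016). Corrected for GC content it was 0.38 (adjusted p = 1.7e-06).

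With TNF 1 of 10 rose in N108 and 2 of 10 in M3 and in WT, with none lower, while 1.1%, 1.1% and 2.03% of all genes tested rose in N108, M3 and WT. The lower calls over all genes were 0.0998%, 0.278% and 3.15%. The median log2 fold change of the 10 was 0.07 in N108, 0.01 in M3 and 0.10 in WT, against 0.00267, -0.00345 and 0.0113 over all genes tested. MCL1, a short-lived pro-survival protein, had 271, 263 and 275 CPM in WT with TNF, against 242, 241 and 238 untreated, with no overlap. Its log2 fold change was 0.17 in WT (SE 0.051, adjusted p = 0.055), 0.16 in M3 (adjusted p = 0.18) and -0.03 in N108 (adjusted p = 0.79). BCL2L11, which encodes BIM, likewise stood at 0.16 in WT (SE 0.048, adjusted p = 0.054), 0.15 in M3 and 0.08 in N108. In WT both passed the threshold with DESeq2 (adjusted p = 0.033 for MCL1 and 0.019 for BCL2L11). BCL2L1 had a log2 fold change of 0.09 in N108, -0.02 in M3 and 0.11 in WT (adjusted p = 0.15), and in WT it passed after GC correction (0.14, adjusted p = 0.0048). BCL2, BAX, BAK1, BID and BMF differed by at most 0.22 in either direction in any line and did not pass.

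**Figure D3:**
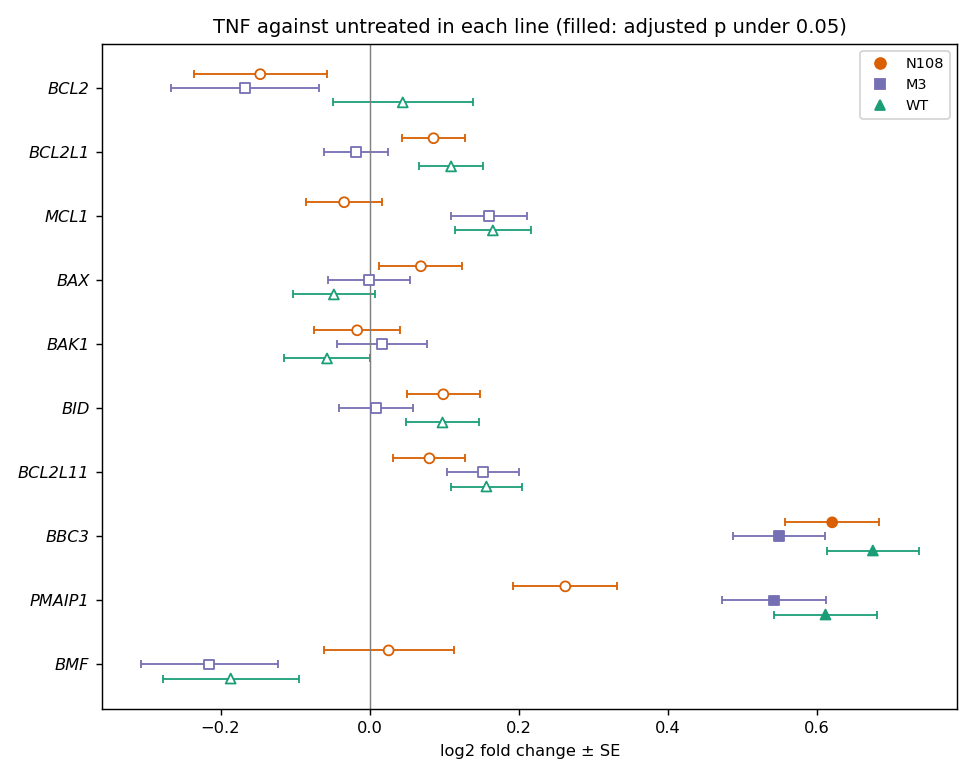
Log2 fold change of TNF over untreated for each gene in N108, M3 and WT, with its SE; filled symbols passed an adjusted p of 0.05. BBC3 lies between 0.55 and 0.68 in the 3 lines and PMAIP1 between 0.26 and 0.61, and the other members lie within 0.22 of 0.

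Whether the lines differed in their TNF response was tested with an interaction term, and none of the 10 genes passed in N108 or in M3 with edgeR. At an unadjusted p under 0.05 there were 2 members in N108 (MCL1 and PMAIP1) and 1 in M3 (BCL2L1), all lower than in WT. DESeq2 called 1 in N108, PMAIP1, and 0 in M3. Among all genes tested 2.62% were called for N108 and 0.315% for M3. For PMAIP1 the response in N108 minus that in WT was -0.35 (SE 0.098, adjusted p = 0.052, DESeq2 0.023), with a range of 0.0035 to 0.33 for the adjusted p over all settings tried. Without the third N108 library with TNF, PMAIP1 passed (adjusted p = 0.01), and so did MCL1 (-0.24, adjusted p = 0.027), which stood at -0.20 (adjusted p = 0.11) with all libraries. The same difference for BBC3 was -0.05 (SE 0.087, adjusted p = 0.77), but -0.32 (adjusted p = 0.0042) after GC correction. The 2 genes lie at opposite ends of the family in transcript GC content, with 69.7% for BBC3 and 37.2% for PMAIP1. The N108 library with TNF that had the positive GC trend was the highest for BBC3 and the lowest for PMAIP1, and the library with the negative trend was the reverse. After GC correction the PMAIP1 difference was -0.15 (adjusted p = 0.33). BCL2, BAX, BAK1, BID, BCL2L11 and BMF differed from the WT response by -0.19, 0.12, 0.04, 0.00, -0.08 and 0.21 in N108, and BCL2L1 by -0.02. In M3 the 10 differences lay between -0.21 for BCL2 and 0.07 for BAK1, and the smallest adjusted p was 0.55. The comparisons of TNF use separate untreated libraries in each line, while each interaction shares the WT libraries with the other.

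The lines themselves differed in more members than the treatment. Untreated, 1 of 10 genes was higher and 5 lower in N108 than in WT, where 20.9% of all genes tested were higher and 21.6% lower. In M3 0 were higher and 7 lower than in WT, where 26.1% of all genes were higher and 26.8% lower. With TNF the counts were 1 higher and 6 lower in N108 (background 23% and 23.6%) and 0 higher and 7 lower in M3 (background 26.9% and 27.8%). The median log2 fold change of the 10 was -0.15 in untreated N108 and -0.27 in untreated M3, against 0.0051 and 0.00384 over all genes tested. Both mutant lines are compared with the same WT libraries, so the 2 sets of values are not independent. DESeq2 gave the same counts of higher and lower members in these 4 comparisons.

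BCL2L1 (ENSG00000171552, chromosome 20, 31664452 to 31723989, minus strand, GRCh38), the gene of BCL-XL and a known NF-κB target, showed the largest difference between lines of the 10. It measured 229, 219.9 and 227 CPM in untreated N108 and 201, 206 and 214 in untreated M3, against 397, 404 and 419.6 in untreated WT. With TNF it measured 234, 249 and 234 CPM in N108 and 207, 205 and 201 in M3, against 438, 421 and 458 in WT. All 12 mutant libraries lay far below all 6 WT libraries. Untreated N108 held 55.4% of the WT level (log2 fold change -0.85, SE 0.043, adjusted p = 2.3e-15) and untreated M3 50.8% (-0.98, SE 0.043, adjusted p = 6.9e-17). With TNF the shares were 54.5% in N108 (-0.88, SE 0.043, adjusted p = 1.3e-15) and 46.5% in M3 (-1.10, SE 0.043, adjusted p = 4.6e-18). Every setting tried left these calls in place.

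The genes around BCL2L1 on chromosome 20 differed from WT in both directions. Within 500 kb of either end of BCL2L1, 8 other genes tested had at least 1 CPM. Their median log2 fold change was 0.12 in untreated N108 and 0.13 in untreated M3. TPX2, a spindle assembly factor whose start lies 15.3 kb away, was lower in N108 (-0.27, SE 0.041, adjusted p = 4.5e-06) and in M3 (-0.52, SE 0.041, adjusted p = 2.0e-11), by less than BCL2L1. PDRG1 was lower too, at -0.20 in N108 and -0.31 in M3. HM13, ID1, CCM2L and TM9SF4 were higher than WT in both lines. PLAGL2 was lower in M3 (-0.35) and did not pass in N108 (0.02), and POFUT1 passed in neither. ABALON, an RNA on the opposite strand whose exons overlap 1424 of the 3314 exon bases of BCL2L1, averaged at most 0.133 CPM in any group. By the same rule BBC3 had 20 such neighbours, of which 14 were lower and 1 higher in untreated N108 (median -0.23, BBC3 itself -0.58) and 11 lower and 2 higher in untreated M3 (median -0.18, BBC3 itself -0.18). Of the 4 neighbours of BCL2, 3 were higher in N108 (median 0.34, BCL2 itself 0.41) and 3 higher and 1 lower in M3 (median 0.22, BCL2 itself -0.27). Over all genes tested 20.9% were higher and 21.6% lower in untreated N108, and 26.1% and 26.8% in untreated M3. BAX had 39 neighbours, of which 4 were higher and 16 lower in N108 and 12 and 13 in M3. For BAK1, with 25, the counts were 6 and 11 in N108 and 7 and 9 in M3. MCL1, with 21, had 3 and 4, then 6 and 7, and BMF, with 20, had 3 and 7 in both lines. BID, BCL2L11 and PMAIP1 had 6, 4 and 1. Whether a region moved with its member was not tested.

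**Figure D4:**
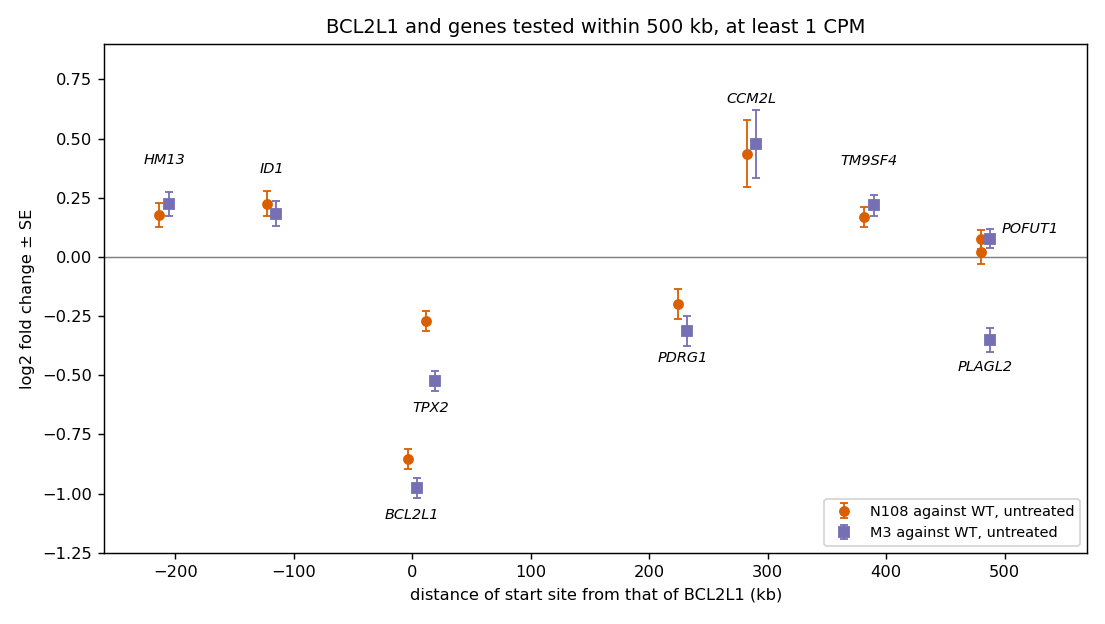
Log2 fold change ± SE against WT in untreated N108 and M3 for BCL2L1 and the 8 genes tested within 500 kb with at least 1 CPM, by the distance of their start from that of BCL2L1 in kb. BCL2L1 lies at -0.85 and -0.98, TPX2 at -0.27 and -0.52, and HM13, ID1, CCM2L and TM9SF4 lie above 0 in both lines.

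MCL1 (ENSG00000143384, chromosome 1, 150574551 to 150579738, minus strand) was lower in M3 in both conditions and in N108 with TNF. Untreated it measured 220.0, 226 and 217 CPM in N108 and 205, 204 and 178 in M3, against 242, 241 and 238 in WT. With TNF the values were 219.9, 199 and 228 CPM in N108 and 215, 222 and 219.8 in M3, against 271, 263 and 275 in WT. No mutant library reached a WT library of the same condition. The difference was -0.30 in untreated M3 (SE 0.051, adjusted p = 1.6e-05), -0.30 in M3 with TNF (adjusted p = 1.2e-05) and -0.32 in N108 with TNF (adjusted p = 8.1e-06). Untreated N108 stood at -0.12 (SE 0.051, adjusted p = 0.055), and passed after GC correction (-0.16, adjusted p = 0.001) but not with DESeq2.

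BCL2 (ENSG00000171791, chromosome 18, 63123346 to 63320128, minus strand), the founding member of the family, was called in opposite directions in the untreated mutant lines. After GC correction so was BAX, at -0.10 in N108 (adjusted p = 0.033) and 0.15 in M3 (adjusted p = 0.0014). Untreated BCL2 measured 9.01, 8.91 and 8.62 CPM in N108 and 5.64, 6.08 and 4.84 in M3, against 6.17, 6.74 and 7.18 in WT. All N108 libraries were above, and all M3 libraries below, the WT libraries. BCL2 was higher in untreated N108 (log2 fold change 0.41, SE 0.09, adjusted p = 0.00056) and lower in untreated M3 (-0.27, SE 0.095, adjusted p = 0.019). The M3 call was lost without the third untreated M3 library (adjusted p = 0.13) or without the third untreated WT library (adjusted p = 0.084). With TNF BCL2 measured 7.71, 7.91 and 8.36 CPM in N108 and 5.2, 4.74 and 4.79 in M3, against 7.76, 7.13 and 5.8 in WT. N108 overlapped WT there (0.22, adjusted p = 0.058, or 0.014 without the first WT library with TNF, 0.039 with a filter of 1 CPM in 3 libraries and 0.029 with GC correction), and M3 was lower (-0.48, SE 0.099, adjusted p = 0.00015).

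The effector BAK1 (ENSG00000030110, chromosome 6, 33572547 to 33580293, minus strand) was lower in both mutants, more so in M3. It measured 20.02, 18.9 and 19.6 CPM in untreated N108 and 15.5, 15.3 and 15.9 in untreated M3, against 22.4, 22.5 and 22.6 in untreated WT. The 3 lines did not overlap, with M3 lowest and WT highest. The log2 fold change was -0.21 in N108 (SE 0.057, adjusted p = 0.0043) and -0.53 in M3 (SE 0.059, adjusted p = 1.4e-08). With TNF it was -0.46 in M3 (adjusted p = 2.3e-07) and -0.17 in N108 (adjusted p = 0.021). The N108 call with TNF was lost without the first or the third N108 library or the third WT library of that condition (adjusted p = 0.058, 0.084 and 0.11). Reads of BAK1 can be shared with its processed pseudogenes BAK1P1 and BAK1P2, which averaged at most 0.477 and 0.00555 CPM in any group.

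BAX (ENSG00000087088, chromosome 19, 48954815 to 48961798, plus strand), the other effector, differed from WT by at most 0.18 (log2, main analysis). Between the untreated mutant lines it was lower in N108 than in M3 (-0.24, adjusted p = 0.0013). It measured 65.2, 63.7 and 65.3 CPM in untreated N108 and 74.5, 71.5 and 83.6 in untreated M3, against 70.5, 71 and 79.3 in untreated WT. N108 libraries were below all WT libraries, and M3 libraries overlapped them. BAX was lower in untreated N108 (log2 fold change -0.18, SE 0.055, adjusted p = 0.0083), a call that was lost without the third untreated WT library (adjusted p = 0.088). M3 stood at 0.06 untreated (adjusted p = 0.41) and 0.10 with TNF (adjusted p = 0.12), and after GC correction these were 0.15 (adjusted p = 0.0014) and 0.19 (adjusted p = 0.00015). In N108 with TNF the difference was -0.07 (adjusted p = 0.34), and -0.12 with GC correction (adjusted p = 0.013).

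Among the BH3-only genes, BBC3 (ENSG00000105327, chromosome 19, 47220822 to 47232766, minus strand) was lower in both mutants, and here N108 was the lowest line. From the levels given above, untreated N108 had 67% of the WT level (log2 fold change -0.58, SE 0.063, adjusted p = 1.9e-08) and untreated M3 88.3% (-0.18, SE 0.062, adjusted p = 0.017). The M3 libraries lay just below the WT ones. That M3 call was lost without the first or the second untreated M3 library or the third untreated WT library (adjusted p = 0.062, 0.091 and 0.11). With TNF BBC3 was lower in N108 (-0.63, SE 0.061, adjusted p = 2.5e-09) and in M3 (-0.30, SE 0.061, adjusted p = 0.00012). The N108 level with TNF, 45.3 ± 4.42 CPM, overlapped that of untreated WT, 44 ± 2.72 CPM.

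PMAIP1 (ENSG00000141682, chromosome 18, 59899948 to 59904306, plus strand) did not differ past the threshold between untreated lines, at -0.10 in N108 (SE 0.07, adjusted p = 0.24) and -0.03 in M3 (SE 0.07, adjusted p = 0.72). With TNF it was lower in N108 than in WT (-0.45, SE 0.069, adjusted p = 4.7e-06) and stood at -0.10 in M3 (adjusted p = 0.22). All N108 libraries with TNF were below all WT libraries with TNF, and so were the M3 libraries by a smaller margin. After GC correction untreated N108 was lower as well (-0.16, adjusted p = 0.0074).

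BID (ENSG00000015475, chromosome 22, 17734138 to 17774770, minus strand), whose product is cut by caspase-8 and so carries death receptor signals to the mitochondrion, was lower in M3. It measured 60.5, 57.9 and 58.4 CPM in untreated N108 and 48.9, 49.4 and 50.9 in untreated M3, against 59.4, 59.8 and 59.8 in untreated WT. The M3 libraries stood apart from both other lines, and N108 overlapped WT. M3 was lower in untreated cells (-0.26, SE 0.049, adjusted p = 4.9e-05) as well as after TNF (-0.35, SE 0.049, adjusted p = 7.3e-07), while N108 stood at -0.02 and -0.02 (adjusted p = 0.79 and 0.79).

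BCL2L11 (ENSG00000153094, chromosome 2, 111119378 to 111168447, plus strand), the gene of BIM, was lower in both mutant lines. It measured 34.1, 31.5 and 32.2 CPM in untreated N108 and 31.5, 33 and 30.1 in untreated M3, against 39.2, 38 and 37.6 in untreated WT, with no overlap between mutants and WT. It was lower untreated in N108 (-0.23, SE 0.048, adjusted p = 0.00025) and in M3 (-0.28, SE 0.048, adjusted p = 1.9e-05), and with TNF in N108 (-0.31, SE 0.048, adjusted p = 6.6e-06) and in M3 (-0.28, SE 0.048, adjusted p = 1.5e-05). Exons of the long noncoding RNA MIR4435-2HG on the opposite strand overlap 727 of its 6658 exon bases. That RNA averaged 6.73 ± 0.1 CPM in untreated N108 and 3.42 ± 0.214 in untreated M3, against 14.9 ± 0.754 in untreated WT, the same direction as BCL2L11. The sources used here do not say whether the counting used strand, so reads in the overlap cannot be assigned, and the part of this RNA in the BCL2L11 difference was not tested.

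BMF (ENSG00000104081, chromosome 15, 40087890 to 40108892, minus strand), a sensor of detachment and cytoskeletal stress, was near the low end of the family. With TNF it measured 5.72, 5.46 and 5.06 CPM in N108 and 3.93, 4.22 and 4.56 in M3, against 4.23, 4.59 and 4.3 in WT. The N108 libraries were above the others. BMF was higher in N108 with TNF (0.31, SE 0.091, adjusted p = 0.0069) and stood at -0.05 in M3 (adjusted p = 0.69). Untreated it stood at 0.10 in N108 and -0.02 in M3 (adjusted p = 0.4 and 0.87).

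**Figure D5:**
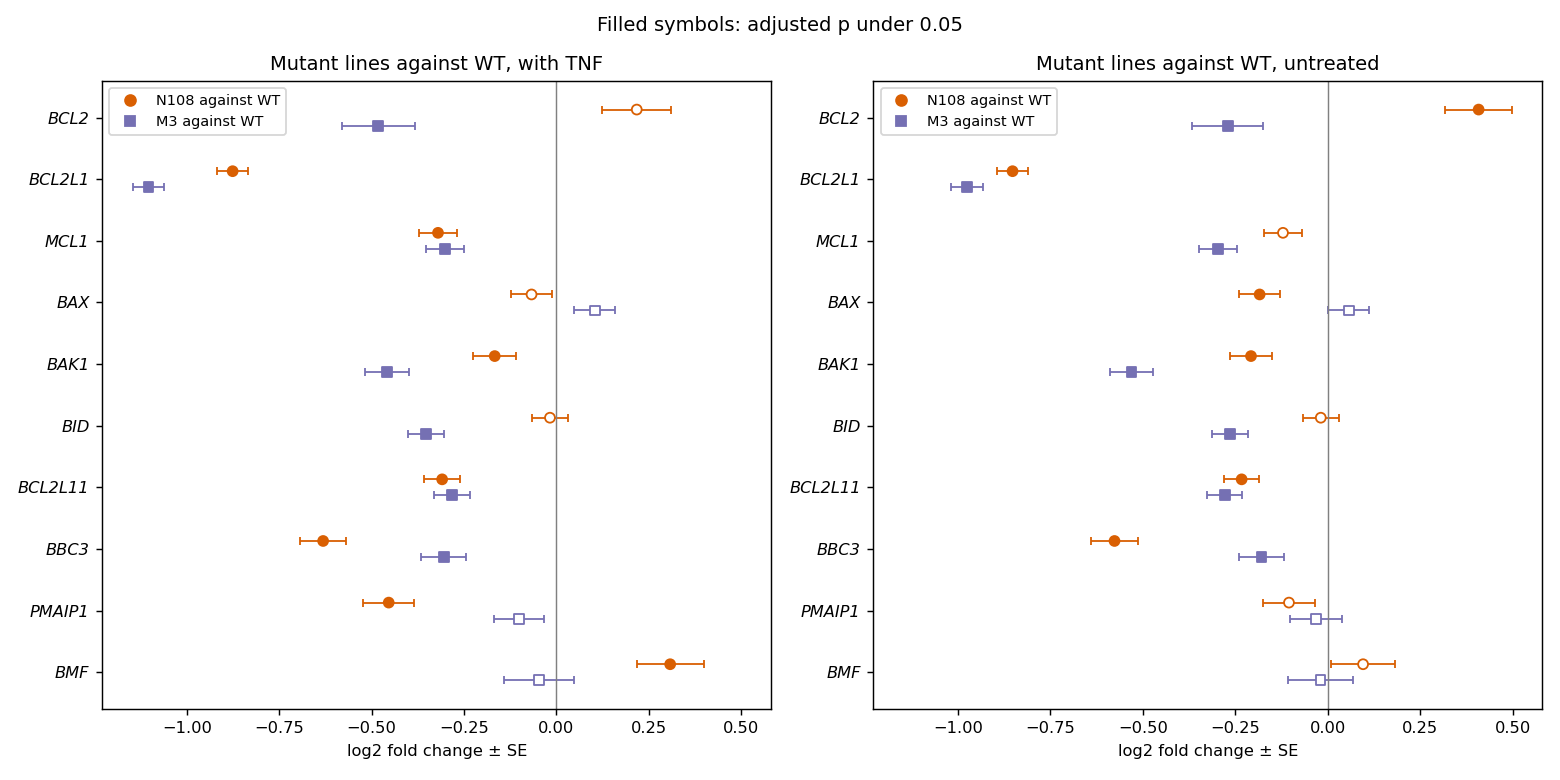
Log2 fold change ± SE of N108 and M3 over WT for each gene, with TNF (left) and untreated (right); filled symbols passed an adjusted p of 0.05. BCL2L1 lies between -0.85 and -1.10 in all 4 comparisons, BCL2 lies above 0 in N108 and below 0 in M3, and BBC3 is lower in N108 (-0.63 and -0.58) than in M3 (-0.30 and -0.18).

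Set directly against each other untreated, N108 and M3 differed in 7 members, with 5 higher and 2 lower in N108 (background 16.4% and 15%). BCL2 was higher in N108 (0.68, SE 0.093, adjusted p = 1.9e-06), at 8.85 against 5.52 CPM. BAK1 (0.32, SE 0.059, adjusted p = 0.0001) and BID (0.24, SE 0.049, adjusted p = 0.0003) were also higher in N108. BBC3 was lower (-0.40, SE 0.063, adjusted p = 1.6e-05), at 29.5 against 38.8 CPM, and so was BAX (-0.24, SE 0.055, adjusted p = 0.0013). MCL1 (0.18, SE 0.051, adjusted p = 0.0087) and BCL2L1 (0.12, SE 0.043, adjusted p = 0.028) were slightly higher in N108. The MCL1 call was lost without the second N108 or the third M3 library (adjusted p = 0.051 and 0.097). The BCL2L1 call was lost without the first or the third N108 library or the first or the second M3 library (adjusted p = 0.097, 0.091, 0.15 and 0.09), and also without a filter on low counts (adjusted p = 0.063). BCL2L11, PMAIP1 and BMF did not pass.

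The rest of the family was covered by a list of 13 genes, of which 11 were tested. BCL2A1, a pro-survival gene and known NF-κB target, had 13 counts over all 18 libraries and BCL2L10 had 14, with at most 3 counts in any library even with TNF. BIK, a BH3-only gene, was the only one of the 11 called for TNF in any line (all genes: 1.1% higher in N108, 1.1% in M3 and 2.03% in WT). It measured 17.3, 19.7 and 17.2 CPM with TNF in N108, against 12.7, 12.3 and 12.7 untreated, and 21.4, 22.2 and 21.5 in M3, against 15.9, 17.1 and 19.2 untreated. WT cells held 22, 22.8 and 23.9 CPM with TNF, against 17, 15.9 and 18.1 untreated. BIK rose by 0.52 in N108, 0.32 in M3 and 0.43 in WT on the log2 scale (adjusted p = 1e-05, 0.0071 and 9.2e-05).

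Between lines, the widest difference of this list was in BCL2L15, a less studied family member. It measured 0.99, 1.2 and 0.818 CPM in untreated N108 and 0.26, 0.163 and 0.14 in untreated M3, against 12.3, 13 and 12.7 in untreated WT. Every N108 library was below every WT library, and M3 libraries were lower still. It was lower in N108 (-3.64, SE 0.12, adjusted p = 2.1e-19) and in M3 (-6.06, SE 0.17, adjusted p = 1.3e-21). In untreated N108 4 of the 11 were higher and 3 lower, and in untreated M3 5 were higher and 4 lower, with medians of 0.06 and 0.04 (all genes tested: 20.9% higher and 21.6% lower in N108, 26.1% and 26.8% in M3). BCL2L2, the pro-survival gene of BCL-W, was lower in N108 (-0.21, SE 0.046, adjusted p = 0.00053) and in M3 (-0.50, SE 0.047, adjusted p = 5.2e-10). HRK, a BH3-only gene, was higher in both lines (0.49 in N108 and 0.42 in M3). BNIP3L, a mitophagy receptor, was higher in both as well (0.76 and 0.58). BIK was lower in N108 (-0.44, adjusted p = 8.2e-06) and stood at 0.04 in M3 (adjusted p = 0.67). With TNF the counts were 4 higher and 3 lower in N108, and 2 higher and 5 lower in M3 (all genes: 23% and 23.6% in N108, 26.9% and 27.8% in M3).

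Downstream of the mitochondrion, a list of 20 apoptosome, caspase and inhibitor genes held 1 call for TNF in each line, BIRC3, which encodes the NF-κB target cIAP2 (all genes: 1.1% higher in N108, 1.1% in M3 and 2.03% in WT). BIRC3 averaged 34 CPM with TNF and 4.69 untreated in N108, 38.5 and 3.69 in M3, and 63 and 5.4 in WT. It rose by 2.86, 3.38 and 3.54 on the log2 scale, far more than any of the 10 members. Between untreated lines 3 of the 20 were higher and 4 lower in N108 than in WT, and 3 higher and 9 lower in M3, with medians of -0.07 and -0.16 (all genes: 20.9% and 21.6% in N108, 26.1% and 26.8% in M3). HTRA2, a mitochondrial serine protease, was higher in both (0.35 in N108 and 0.43 in M3). VDAC1, an outer membrane channel, was lower in M3 (-0.44) and stood at 0.01 in N108 (adjusted p = 0.88). With TNF 1 was higher and 12 lower in N108 (all genes: 23% and 23.6%), and 3 higher and 11 lower in M3 (26.9% and 27.8%).

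Regulators that act on the family were counted in a list of 25, of which 24 were tested. TNF raised 3 of them in each line, JUN, ATF3 and MYC, and lowered FOS in WT (-0.31, adjusted p = 0.037), where 1.1%, 1.1% and 2.03% of all genes rose in N108, M3 and WT and 3.15% fell in WT. JUN rose by 3.23 in N108, 3.55 in M3 and 2.81 in WT, and ATF3 by 1.29, 1.86 and 1.30. MYC, which sensitises cells to apoptosis, averaged 474 CPM in untreated N108 and 542 in untreated M3, against 252 in untreated WT, and was higher in both (0.91 and 1.10). NFKB1 (-0.31 in N108 and -0.46 in M3) and E2F1 (-0.43 and -0.56) were lower in both. In untreated cells 6 of the 24 were higher and 9 lower in N108 than in WT, and 8 higher and 8 lower in M3, where 20.9% and 21.6% of all genes tested were higher and lower in N108, and 26.1% and 26.8% in M3. With TNF the split was 7 and 7 in N108 (all genes 23% and 23.6%) and 9 and 7 in M3 (26.9% and 27.8%).

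Other p53 targets were counted beside BBC3 and PMAIP1, in a list of 26 with 25 tested. With TNF 5 rose in N108, 7 in M3 and 7 in WT, and none fell, with medians of 0.02, 0.06 and 0.12, while 1.1%, 1.1% and 2.03% of all genes tested rose. BTG2, an antiproliferative gene, rose by 1.15, 1.36 and 1.35 in N108, M3 and WT. GDF15, a secreted stress cytokine, rose by 1.16, 0.94 and 0.59, and PLK3 by 0.75, 0.74 and 0.37. Untreated, 5 were higher and 10 lower in N108 than in WT, and 4 higher and 12 lower in M3 (all genes: 20.9% and 21.6% in N108, 26.1% and 26.8% in M3). PLK2 was lower in both lines (-1.70 in N108 and -1.67 in M3), GDF15 was lower in both (-1.28 and -0.59), and GADD45A was higher in both (0.20 and 0.52). With TNF 1 was higher and 11 lower in N108, and 4 higher and 10 lower in M3 (all genes: 23% and 23.6% in N108, 26.9% and 27.8% in M3).

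For the 5 members whose group means spanned at least 0.5 on the log2 scale, the 3 genes most alike over the 18 libraries were found among 13822 genes with a mean of at least 1 CPM. Pearson's r of log2 CPM is given as a description, since the libraries fall into 3 lines and share line, treatment and GC trend. BCL2L1 was most like DUSP4 (r = 0.997), SECTM1 (0.996) and VSIR (0.996). BBC3 was most like GDF15 (0.965), BIK (0.955) and PHLDA1 (0.946), and PMAIP1 most like NFE2L2 (0.956), PHLDA1 (0.925) and SIX4 (0.914). BAK1 was most like UNC119 (0.984), KIF18B (0.982) and PLK1 (0.975), and BCL2 most like ZNF493 (0.943), SLC6A6 (0.938) and IRF2BP2 (0.937). PHLDA1 was thus shared by BBC3 and PMAIP1, the pair called for TNF, and the lists of the other members held no common gene.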

How the data were processed

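The authors deposited raw counts of reads per gene for 18 HCT116 libraries, and a normalized table on a log2 scale, also deposited by the authors, was not used. The submitters' processing notes name STAR 2.7.8, Trim Galore 0.6.6, DESeq2 1.38.3 and, for counting, featureCounts (Subread 2.0.1), with hg38. Annotation release and strand setting: not given in the sources used here. Groups and replicate numbers came from the titles. The test on counts was that of edgeR 4.0.16 (R 4.3.3; filterByExpr, minimum count 10; TMM; robust quasi-likelihood, 6 group means, 12 residual degrees of freedom), two-sided, with Benjamini-Hochberg adjustment over 19038 genes holding 99.97% of the counts. Each SE is the log2 fold change, unsigned, divided by the root of the F statistic. Positions, lengths and GC content came from GENCODE 29 (GRCh38). Precision follows from library totals of 49021907 to 76947190 counts. Members and lists were chosen with earlier results of these data known. All 10 members are named in every comparison (in the interaction in M3 some by range only), and of each list at most the 4 genes with the smallest p. Alternatives were DESeq2 1.42.0, its size factors, other low-count filters, a GC correction, a replicate block, the groups compared only, and each library left out. The steps were tested on simulated data. No chance test over gene lists was made.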

Additional observations from a re-analysis of the deposited data

Results flagged for a closer look

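None of the 10 members passed the interaction test with edgeR, and the genes given here, from the lists of regulators, downstream genes and p53 targets, had a TNF response that differed from that of WT by that test. In M3 the TNF response of JUN exceeded that of WT by 0.74 on the log2 scale (edgeR, adjusted p = 0.00032), with means of 238 CPM with TNF and 20.3 untreated in M3 against 156 and 22.4 in WT. ATF3 in M3 exceeded WT by 0.57 (adjusted p = 0.0028), with 47.7 and 13.1 CPM against 45.0 and 18.3. In N108 the response of BIRC3 differed from that of WT by -0.67 (adjusted p = 0.0033), with 34.0 CPM with TNF and 4.69 untreated against 63.0 and 5.40 in WT. JUN in N108 exceeded WT by 0.42 (adjusted p = 0.026), with 142 and 15.2 CPM against 156 and 22.4. PLK3 in N108 exceeded WT by 0.38 (adjusted p = 0.028), with 35.2 and 21.0 CPM against 29.7 and 23.0. GDF15 in N108 exceeded WT by 0.57 (adjusted p = 0.029), with 183 and 81.9 CPM against 300.2 and 199. PERP in N108 differed from WT by -0.33 (adjusted p = 0.027), with 315 and 349 CPM against 317 and 280.0. All these values came from the main analysis, and those of the same genes under the alternatives are not given here. Over all genes the interaction in N108 had 498 calls in the main analysis and 161 with GC correction. Not every mean given here differs by its own test. Among those that did not pass were JUN in untreated M3 (-0.14 against WT, adjusted p = 0.12) and ATF3 in M3 with TNF (0.08, adjusted p = 0.27). BIRC3 in untreated N108 (-0.215 against WT, adjusted p = 0.069) did not pass either.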

How the results depend on the processing

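Of 39 called member changes, 33 passed under every alternative, and over 546 alternative values 530 stayed past the threshold in the same direction, 16 no longer passed and 0 changed direction. The count for TNF in N108, 1 in the main analysis, was 2 with no filter on low counts, with GC correction, with the replicate block and GC correction together, and with DESeq2, and lay between 1 and 2 when single libraries were left out. The count for TNF in WT, 2 in the main analysis, was 4 with DESeq2 and with its size factors in edgeR. For the interaction in N108, 0 in the main analysis, it was 1 with no filter, with GC correction, with the block and GC correction, with the libraries of the groups compared only, and with DESeq2, and lay between 0 and 2 when single libraries were left out. PMAIP1 was the gene gained in N108 for TNF, MCL1 and BCL2L11 were those gained in WT with DESeq2 or its size factors (MCL1 also with no filter and with the libraries of the groups compared only, and BCL2L1 with GC correction, alone or with the block), and the interaction gained PMAIP1, BBC3 after GC correction, and MCL1 as well as PMAIP1 without the third N108 library with TNF. Same-numbered libraries deviated together by more than 0.1 in 10 of 24 pairs (r from -0.375 to 0.487), so the numbers were not taken to pair the samples across groups. The third untreated libraries of the 3 lines did deviate together (r of 0.273, 0.37 and 0.487) and all had a positive GC trend (0.254 in N108, 0.464 in M3 and 0.29 in WT). The 3 line calls lost without the third untreated WT library (BAX in N108, BCL2 and BBC3 in M3) passed with GC correction. The replicate block alone left the count at 1 for TNF in N108 and 2 in WT, and likewise in the other comparisons. Precision is lowest for BMF and BCL2, with at least 206 and 231 counts per library, and library totals as scaling moved levels by at most 1.02 times. Over all genes tested, the number called for TNF was 228 in N108 (138 to 1333 over the alternatives tried), 262 in M3 (189 to 328) and 987 in WT (432 to 1172), and 498 for the interaction in N108 (161 to 2430) and 60 in M3 (14 to 265). The counts of 1333 and 2430 came without the third N108 library with TNF.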
